A study of Mus musculus with 48 samples.

Results

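Genes of fatty acid synthesis and of the response to the transcription factor SREBP1 were followed across the livers and colons of mice fed diets rich or poor in selenium (Se) and folate. They were chosen by name, as 10 genes out of 18434 with a named probe on the array: *Srebf1*, *Mlxipl*, *Acly*, *Me1*, *Acaca*, *Fasn*, *Elovl6*, *Scd1*, *Thrsp* and *Pnpla3*. Together they had 14 of the 41174 probes, with 4 probes for *Acaca*, 2 for *Fasn* and 1 for each other gene. The probe with the highest mean signal stands for its gene below. These probes were well above background in the mouse channel on all 24 arrays of each tissue, except that of *Pnpla3* in liver, on 22 of 24, and none was saturated.

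Fatty acid synthesis turns surplus carbohydrate into fat. ATP citrate lyase (*Acly*) makes acetyl-CoA in the cytosol, acetyl-CoA carboxylase (*Acaca*) makes malonyl-CoA from it, and fatty acid synthase (*Fasn*) builds palmitate with reducing power that malic enzyme (*Me1*) helps to supply. *Elovl6* lengthens and *Scd1* desaturates the product. In liver, insulin acts through SREBP1 (*Srebf1*) and glucose through ChREBP (*Mlxipl*) to raise these genes after a meal, together with *Thrsp*, a nuclear protein of lipogenic tissues, and *Pnpla3*, a lipid droplet protein. White adipocytes use the same enzymes.

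All mice were C57/BL6 offspring sampled at 12 weeks of age, and all groups received a high-fat diet. Dams received diet H, supplemented with Se and folate, or diet L, marginally deficient in both, during gestation and lactation. Their pups received H or L from weaning. Per the methods, H lay above the recommended requirements for both nutrients and L below them. The groups are named HH, HL, LH and LL, with the dam's diet first and the offspring's after it. Per the methods, the mice were male and were fasted and re-fed before sampling. RNA of liver and of whole colon tissue was labelled with Cy3 and hybridised with one reference RNA in Cy5, on 24 arrays per tissue. Liver came from 6 mice of each of HL, LH and LL and from 5 HH mice, of which 1 was hybridised on 2 arrays per the labels. Colon came from 6 mice per group. Levels below are log2 ratios of mouse over reference, and a difference of 1 is a factor of 2. The reference is described as RNA of a pregnant mouse with foetus in the GEO record and as pooled liver and intestinal RNA in the methods. It is the same on all arrays, so it drops out of differences between mice on the same probe.

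The labels were checked against marker genes. The mean of 4 hepatocyte markers (*Alb*, *Apoa1*, *Ttr*, *Fgb*) was 1.14 to 1.84 in liver and -4.56 to -4.06 in colon, and the mean of 6 colon epithelium markers was 0.16 to 0.84 in colon and -4.55 to -3.82 in liver. *Xist*, an RNA made by female cells from their silenced X chromosome, was over 9 in log2 Cy3 signal on 1 liver array (HL) and on 6 colon arrays (2 HH, 1 HL, 3 LL), against the male sex that the methods give. The Y-linked *Eif2s3y* was at 6.29 on that liver array and at 6.30 to 7.37 on 3 of the 6 colon arrays (1 HL, 2 LL). The other 3 colon arrays (2 HH, 1 LL) carried both genes, with *Eif2s3y* at 10.1 to 11.2, against 11.0 to 11.6 on the 18 colon arrays without *Xist*. A further liver array (LL) was just under the cut, with *Xist* at 8.55 and *Eif2s3y* at 10.6. It counts here as without *Xist*. Without all mice with *Xist*, 85 of 90 differences of the 10 genes kept their direction in liver and 67 of 90 in colon. In a tissue RNA, fewer cells of a type and less RNA per cell cannot be told apart.

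SREBPs and ChREBP act on sequence before the transcription start, so the start sites that RefSeq places at the edge of the gene are shown for 4 of the genes. Each run is the 250 bases before the start (build GRCm38.p6), written along the strand of the gene, 5′ to 3′. Capitals mark matches, on either strand, to CACGTG (an E-box, bound by USF factors and, in pairs, by ChREBP), CCAAT (bound by NF-Y) and GGGCGG (bound by Sp1). TCACNCCAC, a form of the sterol regulatory element bound by SREBPs, was searched as well.
*Mlxipl*, chr5:135089640-135089889, plus strand: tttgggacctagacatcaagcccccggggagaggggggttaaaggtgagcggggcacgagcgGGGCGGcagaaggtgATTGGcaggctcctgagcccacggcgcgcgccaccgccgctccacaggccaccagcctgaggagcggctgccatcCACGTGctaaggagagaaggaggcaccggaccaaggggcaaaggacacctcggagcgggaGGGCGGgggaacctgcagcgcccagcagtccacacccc
*Acly*, chr11:100528001-100528250, minus strand: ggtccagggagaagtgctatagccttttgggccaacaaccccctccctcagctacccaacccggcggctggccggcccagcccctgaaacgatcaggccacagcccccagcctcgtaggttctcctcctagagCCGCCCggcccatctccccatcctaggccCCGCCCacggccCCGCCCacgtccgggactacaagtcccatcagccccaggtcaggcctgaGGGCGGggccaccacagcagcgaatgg
*Me1*, chr9:86695915-86696164, minus strand: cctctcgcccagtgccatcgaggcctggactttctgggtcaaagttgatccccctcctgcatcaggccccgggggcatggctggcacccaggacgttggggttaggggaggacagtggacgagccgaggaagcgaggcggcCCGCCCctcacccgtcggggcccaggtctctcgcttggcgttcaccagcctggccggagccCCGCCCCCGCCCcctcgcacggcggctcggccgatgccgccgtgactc
*Thrsp*, chr7:97417551-97417800, minus strand: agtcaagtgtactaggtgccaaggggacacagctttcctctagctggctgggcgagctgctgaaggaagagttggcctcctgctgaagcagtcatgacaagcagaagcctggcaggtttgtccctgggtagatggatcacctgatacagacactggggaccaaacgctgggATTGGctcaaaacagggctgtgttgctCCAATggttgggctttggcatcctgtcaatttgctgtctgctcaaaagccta
The *Mlxipl* window held CACGTG with its first base 98 bases before the start, beside 1 CCAAT and 2 GGGCGG. The *Acly* window held 4 GGGCGG and the *Me1* window 3. The *Thrsp* window held 2 CCAAT, on opposite strands, with first bases 79 and 52 before the start.

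RefSeq windows were found for 9 of the 10 genes, with 13 start sites in all, and none for *Scd1*. CCAAT was in 7 of the 13 windows and in 33.8% of all 32851 windows, and GGGCGG in 6 of 13 and in 32.7%. CACGTG was in 1 of 13 (*Mlxipl*) and in 6.02% of all, and TCACNCCAC in 1 of 13 (the second start of *Mlxipl*, first base 136 before it) and in 1.05% of all. A match is a description of the letters and not a binding site.

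Liver and colon differed far more in these genes than the diets did. Of the 10 genes, 9 were higher in liver, by 1.91-fold for *Acly* to 8.33-fold for *Scd1*, in a limma fit over all diets, and *Pnpla3* did not pass. Of all 41171 probes tested, 30.3% were called in either direction and 14.6% as higher in liver, at a fold change over 1.5 and a false discovery rate (FDR) under 0.05.

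Among the transcription factors, *Mlxipl* averaged 0.97 ± 0.36 (SD, n = 23) in liver, from 0.01 to 1.55, and -1.44 ± 0.29 (n = 24) in colon, from -2.00 to -0.80. *Srebf1* averaged 2.22 ± 0.39 in liver, from 1.35 to 2.98, and 0.26 ± 0.16 in colon, from -0.07 to 0.61. No liver overlapped any colon for either gene. The differences were 2.42 ± 0.12 (SE) for *Mlxipl* (limma, adjusted p = 1.19e-22) and 1.95 ± 0.11 for *Srebf1* (limma, adjusted p = 4.07e-20).

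Of the genes that supply substrate and reducing power, *Me1* averaged -0.54 ± 0.50 in liver and -2.43 ± 0.56 in colon, and *Acly* 1.09 ± 0.52 and 0.16 ± 0.34. The ranges of the tissues met for both. *Me1* differed by 1.89 ± 0.20 (SE) and *Acly* by 0.93 ± 0.17 on the log2 scale.

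Of the chain-building enzymes, *Fasn* averaged 2.52 ± 0.68 in liver, from 0.74 to 3.45, and 0.74 ± 0.59 in colon, from -0.22 to 1.91. The difference was 1.78 ± 0.24 (SE) on its brighter probe and 2.14 ± 0.20 on the other. *Acaca* averaged 2.05 ± 0.46 and 0.88 ± 0.33, a difference of 1.17 ± 0.15. Its 3 dimmer probes gave 0.18, 0.40 and 0.56, so a difference of this size was seen on 1 probe. The dimmer probes had a mean log2 Cy3 signal of 6.57 to 7.21, against 9.34 in liver and 9.31 in colon for the brightest. That at 0.40 was well above background in the mouse channel on 17 of 24 liver and 14 of 24 colon arrays. What part low signal has in the smaller values was not tested.

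*Scd1* had the largest difference in this fit, with 2.63 ± 0.37 in liver (from 1.86 to 3.29) and -0.42 ± 1.08 in colon (from -2.82 to 1.12), a difference of 3.06 ± 0.29 (SE) with no overlap. The difference was 2.50 ± 0.32 for *Thrsp* and 1.58 ± 0.16 for *Elovl6*. The order of *Scd1* and *Thrsp* depended on the setting: with the Cy3 channel alone, *Thrsp* differed by 3.63 and *Scd1* by 3.14. Without the 4 colons of few adipocyte transcripts described further on, *Thrsp* differed by 2.05, less than *Mlxipl* at 2.39. *Pnpla3* averaged -0.42 ± 0.68 in liver and -0.36 ± 0.72 in colon, and its difference of -0.07 had a 95% interval from -0.61 to 0.47, with a limma adjusted p of 0.85. With each array centred on its median in place of loess, the median difference of all probes moved from 0.01 to 0.22, and *Acaca* (0.55) and *Acly* (0.33) were no longer called.

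**Figure D1:**
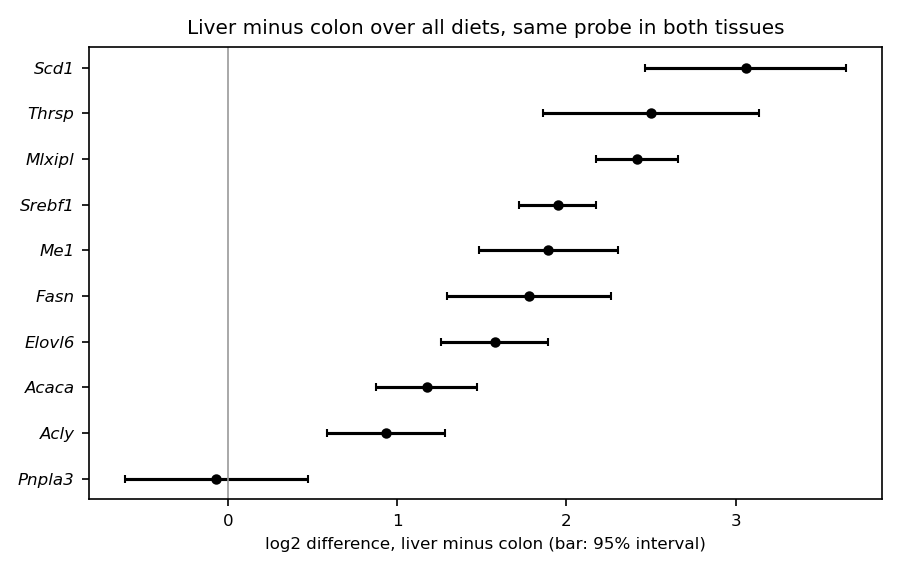
Log2 difference of liver minus colon for the 10 genes (points, with bars for the 95% interval), from the limma fit over all diets and on the same probe in both tissues. *Scd1* lies farthest to the right at 3.06, *Acly* is the smallest of the 9 called genes at 0.93, and the interval of *Pnpla3* includes 0.

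The next question was whether the diet of the dam, or that of the offspring after weaning, altered these genes. No gene passed in any of the 9 liver comparisons (all 6 pairs of groups, dam diet, offspring diet and their interaction), and neither did any of the 41171 or 41172 probes tested in each (limma, 0% called). These comparisons share groups. At an unadjusted p under 0.05, the call would include 12% of all probes for LH *vs.* HH, 6.38% for LL *vs.* LH and 11.4% for the interaction, and of the 10 genes 0, 2 and 1. None of the 10 was below 0.05 in the other liver comparisons, where the share of all probes was 4.38% for HL *vs.* HH, 3.45% for LL *vs.* HH, 3.08% for LL *vs.* HL, 1.74% for LH *vs.* HL, 4.14% for dam diet and 1.37% for offspring diet.

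*Mlxipl* and *Elovl6* were the pair below 0.05 for LL *vs.* LH in liver, the comparison of the offspring diets after a dam on diet L. *Mlxipl* ran from 0.49 to 1.02 in LH (median 0.78) and from 0.90 to 1.49 in LL (median 1.21), so that the groups overlapped only between 0.90 and 1.02. The difference was 0.42 ± 0.19 (SE, limma, unadjusted p = 0.034, adjusted p = 0.77), and within the 6 slides it ran from -0.06 to 0.71, higher in LL on 5. *Elovl6* ran from 0.95 to 2.80 in LH (median 1.91) and from 2.19 to 3.24 in LL (median 2.36). Its difference was 0.66 ± 0.32 (SE, limma, unadjusted p = 0.048, adjusted p = 0.77), from -0.21 to 1.37 within slides and higher in LL on 4 of 6.

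The other enzymes of the chain leaned the same way in LL *vs.* LH without passing: *Fasn* by 0.46 ± 0.37 (SE), *Acaca* by 0.40 ± 0.25, *Me1* by 0.31 ± 0.28 and *Acly* by 0.18 ± 0.30. *Scd1* leaned the other way, with a range of 2.09 to 3.29 in LH (median 2.74) and of 1.86 to 2.91 in LL (median 2.46). Its difference was -0.39 ± 0.19 (limma, unadjusted p = 0.054, adjusted p = 0.77). *Srebf1* itself differed by 0.02 ± 0.22 and *Thrsp* by -0.03 ± 0.26. In all, 8 of the 10 genes were higher in LL than in LH and 2 lower, with a median difference of 0.36. Their levels were correlated across mice (median 0.40 between pairs), so these directions are not independent results.

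**Figure D2:**
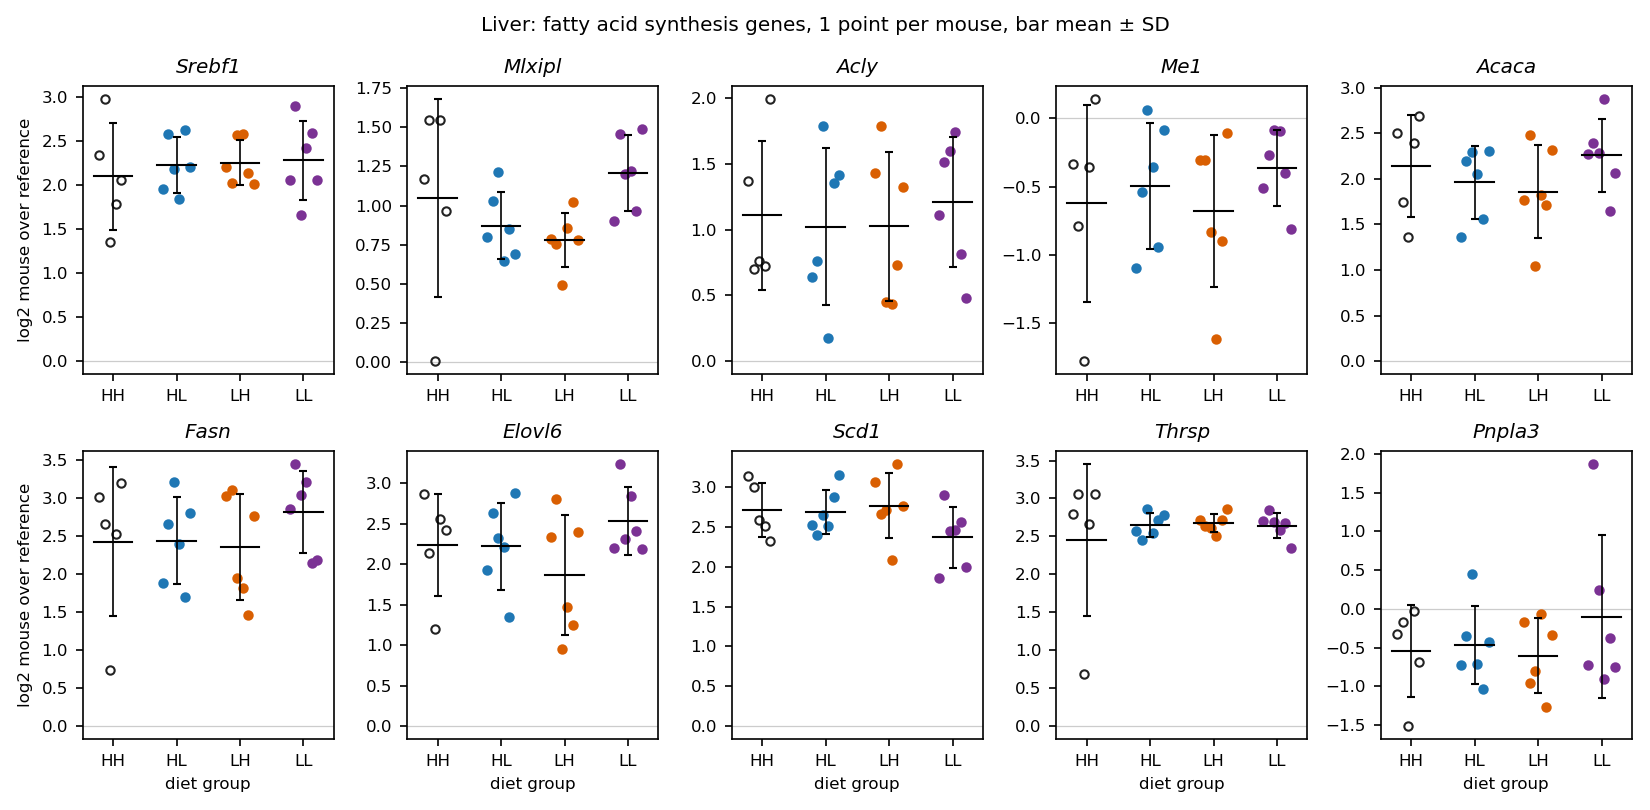
Level of each of the 10 genes in liver (log2 mouse over reference) by diet group, 1 point per mouse, with bars for the mean ± SD (5 HH mice, 6 of each other group). The groups overlap for every gene, and 1 HH mouse lies below all other HH mice for *Thrsp*, *Fasn*, *Me1*, *Mlxipl* and *Pnpla3*.

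For LH *vs.* HH in liver, the comparison of dam diets with offspring on H, 3 genes were higher in LH and 7 lower, with a median of -0.06. With slide as a block and each array on its own, 6 were higher and 4 lower (median 0.09). That fit takes the 6 HH arrays as 6 mice although they came from 5, so the HH mouse with 2 arrays, described below, counts as 2. Counting it so, without the block, also kept 84 of 90 liver directions, as the block did. The size ran from *Elovl6* at -0.37 ± 0.33 (SE) to *Me1* and *Scd1* at -0.05 ± 0.29 and 0.05 ± 0.20. The 95% interval of *Fasn* reached from -0.88 to 0.74, so a change of 1.5-fold either way lies within it. For HL *vs.* HH, 5 genes were higher and 5 lower, none by more than 0.20. For LL *vs.* HH, 9 were higher and *Scd1* was lower (-0.34 ± 0.20), with a median of 0.18. That count of 9 rested in part on 1 HH mouse, described below. The probes of *Acaca* did not give one answer for LH *vs.* HH: the brightest gave -0.28, one dimmer probe -0.42 (limma, unadjusted p = 0.025, adjusted p = 0.34) and the remaining probes 0.04 and 0.07. The probe at -0.42 was well above background in the mouse channel on 17 of 24 liver arrays.

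One HH liver stood apart from its group. This mouse was measured on 2 arrays, on different slides, and both gave the same picture. *Thrsp* was 0.70 and 0.68 on the 2 arrays (0.69 as their mean), while the other HH mice had 2.67, 2.79, 3.06 and 3.06. *Fasn* was 0.87 and 0.61 (mean 0.74), against 2.53, 2.66, 3.01 and 3.20 in the others.

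The same mouse was lowest of the 5 HH mice for *Mlxipl* (0.01, others 0.97 to 1.55), *Me1* (-1.78, others -0.79 to 0.14), *Pnpla3* (-1.51, others -0.68 to -0.03), *Elovl6* (1.20, others 2.14 to 2.86), *Acaca* (1.37, others 1.74 to 2.69) and *Srebf1* (1.35, others 1.78 to 2.98). Its *Scd1* of 2.59 lay in the middle of the group and its *Acly* of 0.76 likewise. Over all probes, the deviations of its 2 arrays from the group correlated at 0.81, against at most 0.26 for other HH pairs.

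Without this mouse, several directions against HH in liver changed. *Thrsp* for LH *vs.* HH moved from 0.22 to -0.22 (limma, unadjusted p = 0.040, adjusted p = 0.34), and LL *vs.* HH and HL *vs.* HH of *Thrsp* turned as well, to -0.25 and -0.24. For LL *vs.* HH, *Mlxipl* (-0.10), *Acaca* (-0.08), *Fasn* (-0.03), *Me1* (-0.03) and *Srebf1* (-0.01) turned too. *Elovl6*, *Pnpla3* and *Acly* stayed higher in LL. *Fasn* for LH *vs.* HH moved from -0.07 to -0.49 and *Mlxipl* from -0.26 to -0.52 (limma, unadjusted p = 0.0011, adjusted p = 0.21). The interaction of *Mlxipl* (LL minus LH, less HL minus HH) was 0.60 ± 0.27 (SE, limma, unadjusted p = 0.038, adjusted p = 0.41) with the mouse and 0.86 without it (unadjusted p = 0.00015, adjusted p = 0.21). With slide as a block and each array on its own, which counts this mouse as 2 mice, the interaction was 0.42 (limma, unadjusted p = 0.18). None passed the FDR. This mouse was singled out for its low levels of these genes, so leaving it out raises the HH means by the choice itself. The p-values without it are therefore not tests of a diet effect.

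Other mice outside the pattern were few. An LL mouse had the highest liver *Pnpla3*, at 1.87, where the next LL mouse had 0.25. One LH liver carried adipocyte transcripts: the mean of 7 adipocyte markers was 1.59 there and -1.81 to -0.39 in all other livers. The *Me1* of that LH liver was -1.62, the lowest of its group, where the others had -0.90 to -0.11. What adipose tissue adds to its levels was not tested.

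In colon, the 10 genes leaned together, and none passed. All 10 were lower in LH than in HH, by 0.05 for *Srebf1* to 0.63 for *Thrsp* (median -0.27), and all 10 were higher in LL than in LH (median 0.20). Most of these genes also varied together from mouse to mouse, with a median correlation of 0.57 between pairs in 20 colons. The 10 directions are therefore not independent results. Without the 6 colons with *Xist*, all 10 were still lower in LH than in HH (median -0.26), but for LL *vs.* LH 6 were higher and 4 lower (median 0.02). In none of the 9 comparisons was any of the 10 genes, or any of 41173 probes, called (limma, 0%), and every adjusted p of the 10 genes came to 1.00. At an unadjusted p under 0.05, 3.24% of all probes and none of the 10 genes would be called for LH *vs.* HH, and 2.8% and none for LL *vs.* LH. None of the 10 was below 0.05 in the other colon comparisons either, where the share of all probes was 1.46% for HL *vs.* HH, 1.72% for LL *vs.* HH, 1.02% for LL *vs.* HL, 2.95% for LH *vs.* HL, 2.11% for dam diet, 2.04% for offspring diet and 1.79% for the interaction. The colon groups HH and LH each enter several of these comparisons.

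*Elovl6* came nearest for LH *vs.* HH, with a range of 0.45 to 1.00 in HH (median 0.75) and of 0.04 to 0.80 in LH (median 0.57). The difference was -0.23 ± 0.13 (SE, limma, unadjusted p = 0.076), and within slides it ran from -0.55 to 0.05. *Mlxipl* came nearest for LL *vs.* LH, at 0.31 ± 0.15 (limma, unadjusted p = 0.055). It was higher in LL on all 6 slides, by 0.02 to 1.02. Over all settings tried the difference lay between 0.15 and 0.45. The LL colon with the highest *Mlxipl* (-0.80) had *Xist*, which no LH colon had. Differences of *Srebf1* were within 0.10 in every colon comparison, and its 95% interval for LH *vs.* HH was -0.24 to 0.14.

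The larger differences of colon were those of genes with a wide spread. *Thrsp* ran from -0.24 to 1.20 in HH (median 0.37), from -1.53 to 1.44 in HL (0.48), from -2.10 to 0.70 in LH (0.07) and from -2.28 to 1.61 in LL (0.49). *Scd1* ran from -1.17 to 0.85 in HH, from -0.95 to 1.12 in HL, from -2.82 to 0.67 in LH and from -2.77 to 1.10 in LL. The 3 lowest values of both genes came from the same colons.

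**Figure D3:**
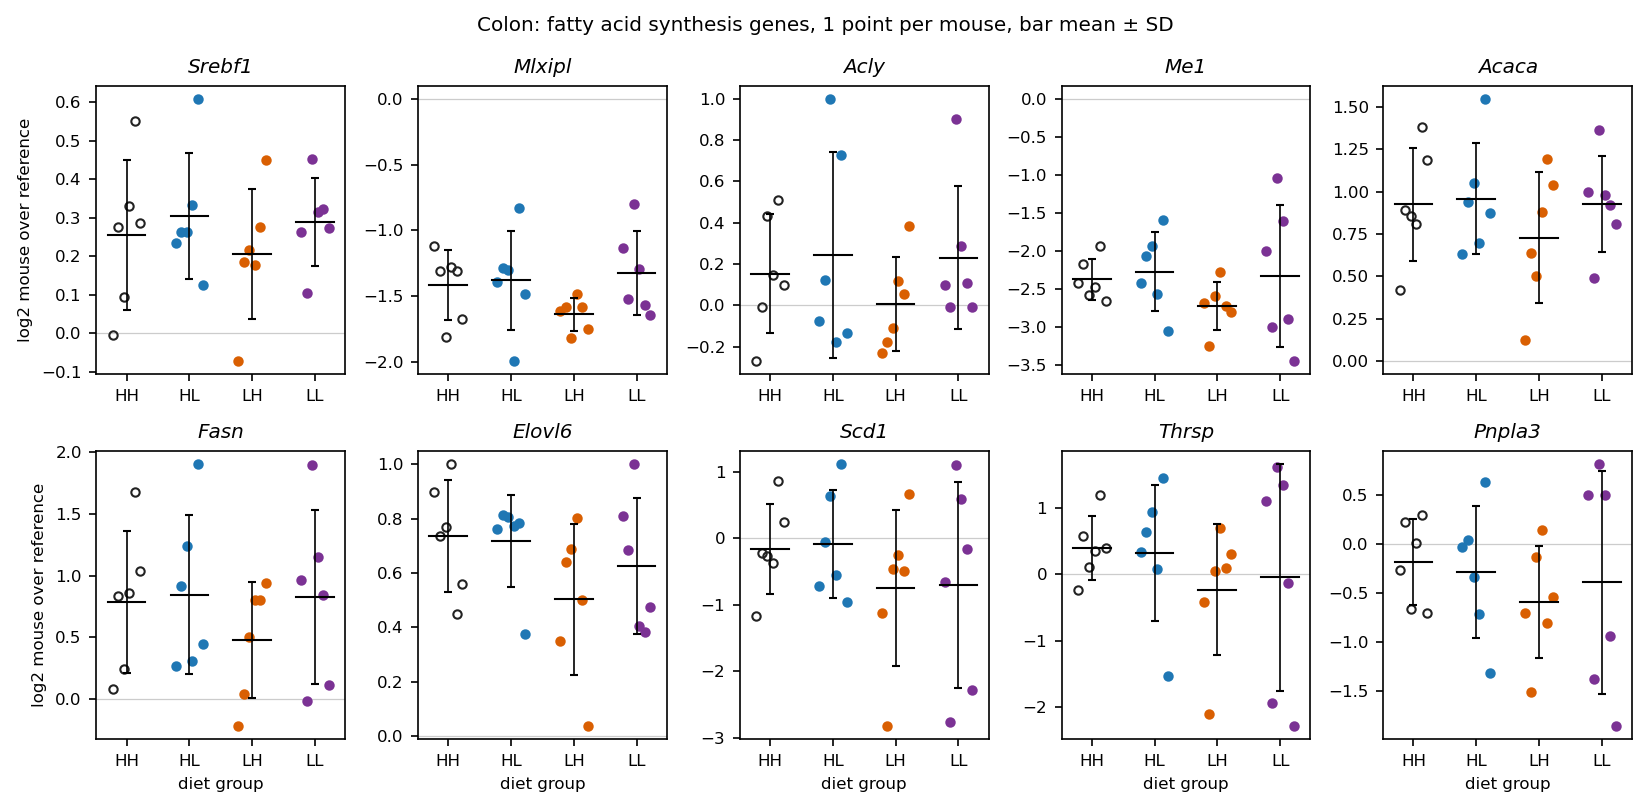
Level of each of the 10 genes in colon (log2 mouse over reference) by diet group, 1 point per mouse, with bars for the mean ± SD (6 mice per group). The same 4 colons (1 LH, 2 LL and 1 HL) lie below all others for *Thrsp*, *Me1* and *Pnpla3*, while *Srebf1* stays between -0.07 and 0.61 in all 24.

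Those colons held few adipocyte transcripts. The mean of 7 adipocyte markers (*Adipoq*, *Plin1*, *Lep*, *Cfd*, *Retn*, *Fabp4*, *Cidea*) was between 1.28 and 2.60 in 20 colons and 0.47 or lower in 4. The 4 were 1 LH colon (-0.79), 2 LL colons (-0.93 and 0.01) and 1 HL colon (0.47). By group, the marker mean ran from 1.28 to 2.13 in HH, from 0.47 to 2.29 in HL, from -0.79 to 2.07 in LH and from -0.93 to 2.60 in LL. *Adipoq*, *Plin1*, *Cfd*, *Retn*, *Fabp4* and *Cidea* were well above background on all 24 colon arrays and *Lep* on 20.

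In the LH colon, the LL colon at -0.93, the LL colon at 0.01 and the HL colon, in this order, *Thrsp* was -2.10, -2.28, -1.94 and -1.53, and no other colon was below -0.42. *Scd1* was -2.82, -2.29, -2.77 and -0.95. *Me1* was -3.26, -3.46, -3.00 and -3.06, and *Pnpla3* -1.51, -1.86, -1.38 and -1.31, below all other colons for both genes. *Fasn* was 0.04, 0.11, -0.02 and 0.44, within the range of the other colons (-0.22 to 1.91). Their *Srebf1* and *Elovl6* also lay within the range of the other colons.

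**Figure D4:**
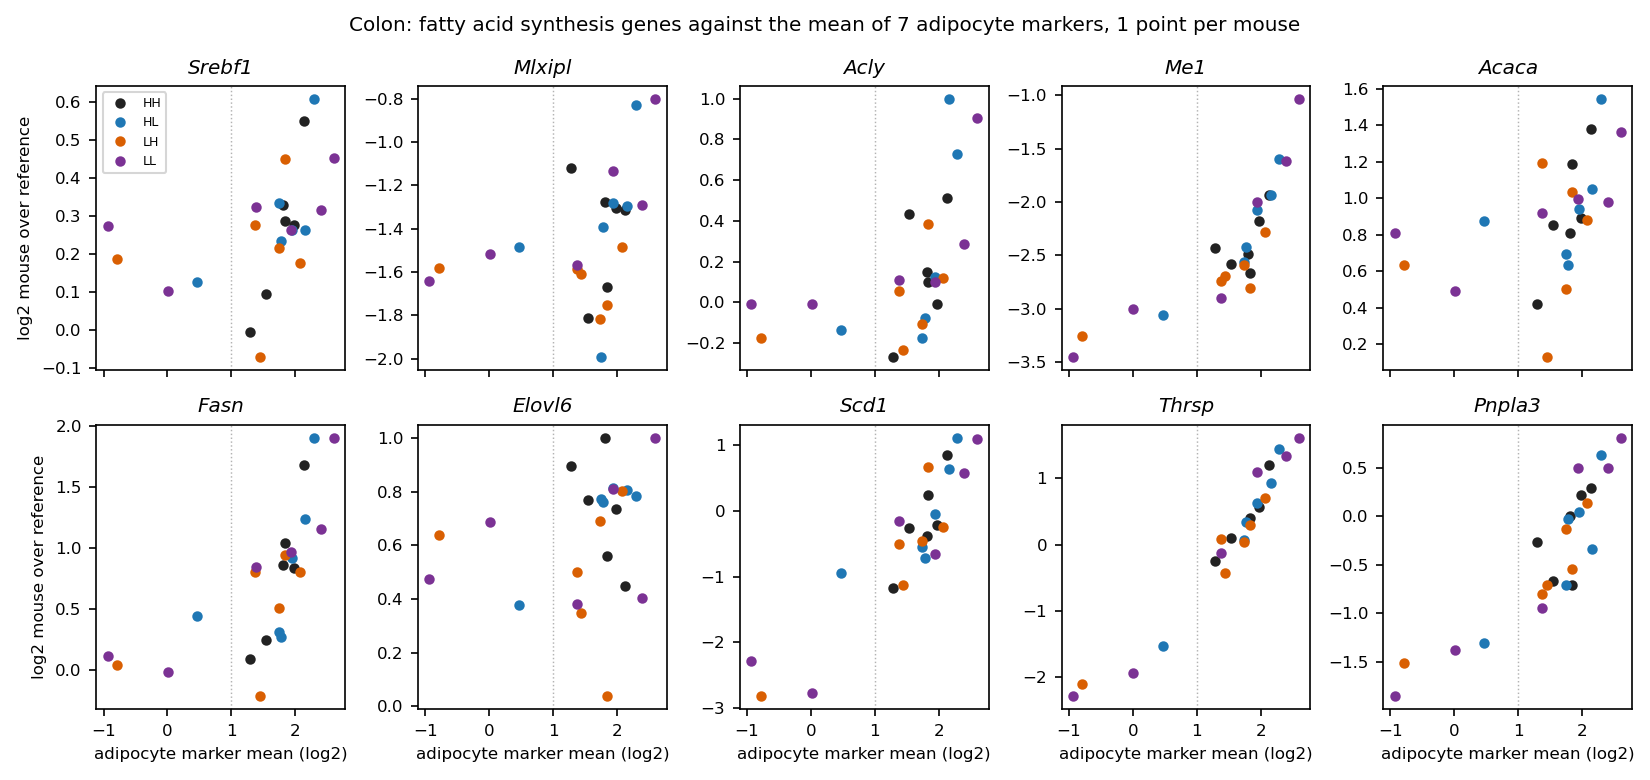
Level of each of the 10 genes in colon (log2 mouse over reference) against the mean log2 ratio of 7 adipocyte markers, 1 point per mouse, coloured by diet group, with a dotted line at 1. The 4 colons left of the line have the lowest *Thrsp*, *Me1* and *Pnpla3*, while their *Elovl6* and *Srebf1* lie among those of the other 20.

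Leaving out these 4 colons moved the colon differences of the wide genes. For LH *vs.* HH, *Thrsp* went from -0.63 to -0.25 and *Scd1* from -0.59 to -0.17. For LL *vs.* HH, *Thrsp* went from -0.44 to 0.59 and *Scd1* from -0.54 to 0.38, a change of direction. With the adipocyte marker mean as a covariate over all 24 colons, LH *vs.* HH was -0.07 for *Thrsp* and -0.09 for *Scd1*. These choices were made after the values were seen.

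For LL *vs.* LH in the 20 colons, the limma difference of *Me1* was 0.74 (unadjusted p = 0.011, adjusted p = 1.00). It was 0.84 for *Thrsp* (limma, unadjusted p = 0.019, adjusted p = 1.00) and 0.45 for *Mlxipl* (limma, unadjusted p = 0.024, adjusted p = 1.00). The colons left out were the lowest for *Me1* and *Thrsp* and held 2 LL mice but 1 LH mouse. Leaving them out thus raised LL above LH for these genes by the choice itself, and these p-values are not tests of a diet effect. Another split of the mice gave another picture. Without the 6 colons with *Xist*, which had no LH mouse among them, LL *vs.* LH was 0.04 for *Me1* and -0.73 for *Thrsp*, and LL *vs.* HH was -1.32 for *Thrsp* and -1.34 for *Scd1*. None was called in either.

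The 6 colons with *Xist* did not lie together. The 3 highest colon *Fasn* levels, 1.91, 1.90 and 1.68, came from an HL, an LL and an HH mouse that all had *Xist*. The same 3 mice also had the highest colon *Scd1* levels, of 1.12, 1.10 and 0.85. The HH mouse among them also had *Eif2s3y*, and the other two did not. Another HH mouse with both *Xist* and *Eif2s3y* was the lowest HH colon for *Scd1* (-1.17), *Acaca* (0.42) and *Acly* (-0.27). Whether sex has a part in these levels was not tested.

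Spread between mice of a group was large for these genes. In colon, the within-group SD was 1.14 for *Thrsp* and 1.11 for *Scd1*, and only 0.034% and 0.049% of all probes had a larger one, while the median over all probes was 0.16. *Pnpla3* followed with 0.75, *Fasn* with 0.61 and *Me1* with 0.57. *Srebf1*, with an SD of 0.16, was an ordinary gene in colon: 47.0% of probes had a larger SD.

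In liver, *Fasn* and *Pnpla3* had an SD of 0.70 each, *Elovl6* 0.59 and *Acly* 0.56, against a median of 0.17 over all probes. *Srebf1* varied more in liver than in colon, with an SD of 0.42 and 4.76% of probes above it, and so did *Elovl6*, with 0.23 in colon. *Scd1* had an SD of 0.36 in liver.

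The next comparison asked whether the regulator and the enzymes varied together from mouse to mouse. Values were taken as deviations from the diet group mean, and p-values are two-sided, from 100000 permutations of mice within groups, adjusted over the 9 relations of a gene in a tissue. In liver, *Srebf1* followed none of the other 9 genes by this test (n = 23 mice). Its Pearson correlation was highest with *Thrsp* (r = 0.50, Spearman 0.24, permutation adjusted p = 0.43 and 0.69) and with *Mlxipl* (r = 0.45, Spearman 0.28, the same adjusted p), and was 0.21 with *Fasn* and -0.07 with *Acaca*. Without the 2 mice farthest from the median of *Srebf1*, r with *Thrsp* was 0.09, so that it rested on those mice.

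Liver *Fasn*, added as a second anchor after the values were seen, followed 6 of the 9. The correlation was 0.86 with *Me1* (Spearman 0.85, permutation adjusted p = 9.0e-05 and 0.00018), 0.84 with *Elovl6* (Spearman 0.80), 0.78 with *Acaca* (0.77), 0.69 with *Thrsp* (0.58), 0.67 with *Acly* (0.70) and 0.55 with *Pnpla3* (0.55). With slide removed as well as group, r with *Me1* was 0.95. Without the 2 mice farthest from the median of *Fasn*, *Me1*, *Elovl6*, *Acaca* and *Acly* stayed between 0.75 and 0.82, while *Thrsp* was 0.50 and *Pnpla3* 0.40. Without the HH mouse of low *Thrsp*, *Thrsp* (0.43) and *Pnpla3* (0.46) no longer passed. *Scd1* was the enzyme that stood aside, with r = 0.16 (Spearman 0.17, permutation adjusted p = 0.51 and 0.54).

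In colon, correlations are given over the 20 colons with an adipocyte marker mean above 1, since the other 4 stood apart. This cut was made after the values were seen. *Srebf1* followed *Fasn* (r = 0.85, Spearman 0.78, permutation adjusted p = 0.00045 and 0.0031), *Acaca* (0.83, Spearman 0.71), *Scd1* (0.79, Spearman 0.65), *Thrsp* (0.64, Spearman 0.57) and *Acly* (0.54, Spearman 0.54), which is 5 of 9. It did not pass with *Me1* (0.34), *Pnpla3* (0.37), *Mlxipl* (0.22) and *Elovl6* (-0.26). With slide removed as well as group, these became 0.64, 0.82, 0.53 and 0.24, and r with *Fasn* 0.75. Without the 2 colons farthest from the median of *Srebf1*, r with *Fasn* was 0.76. Among the 18 colons without *Xist*, none passed by both measures, and *Fasn* passed by Pearson (r = 0.67, Spearman 0.61, permutation adjusted p = 0.049 and 0.20).

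Colon *Fasn* over the same 20 mice was closest to *Acaca* (r = 0.91, Spearman 0.92, permutation adjusted p = 6.0e-05 and 9.0e-05), *Scd1* (0.90, Spearman 0.88) and *Thrsp* (0.85, Spearman 0.85), and passed with 6 of 9 by both measures and with *Pnpla3* by Pearson (0.54, Spearman 0.49, permutation adjusted p = 0.027 and 0.055). *Elovl6* had r = -0.03 with *Fasn* in colon, against 0.84 in liver. With slide removed as well, these were 0.42 and 0.84. The difference between the tissues in these correlations was not tested.

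The adipocyte gene *Adipoq*, which encodes adiponectin, followed 8 of the 10 genes over these 20 colons, with p-values adjusted over the 10. The correlation was 0.85 with *Scd1* (Spearman 0.87, permutation adjusted p = 0.0001 and 0.0002), 0.82 with *Thrsp* (Spearman 0.80), 0.78 with *Fasn* (Spearman 0.74) and 0.75 with *Srebf1* (Spearman 0.66). It was -0.22 with *Elovl6* (Spearman -0.23) and 0.19 with *Mlxipl* (Spearman 0.14). Without the mice with *Xist* as well, 14 colons were left and none of the 10 passed, with *Scd1* highest at 0.69 (Spearman 0.63, permutation adjusted p = 0.071 and 0.29).

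Over all 45 pairs of the 10 genes, the median correlation was 0.40 in liver (23 mice), with 15 pairs over 0.5, and 0.57 in the 20 colons, with 26 pairs over 0.5. Without the HH liver of low *Thrsp* the liver median was 0.23 with 11 pairs over 0.5, and without the colons with *Xist* the colon median was 0.42 with 20. All 5 colon pairs below 0 were pairs of *Elovl6*, lowest with *Scd1* (-0.27).

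**Figure D5:**
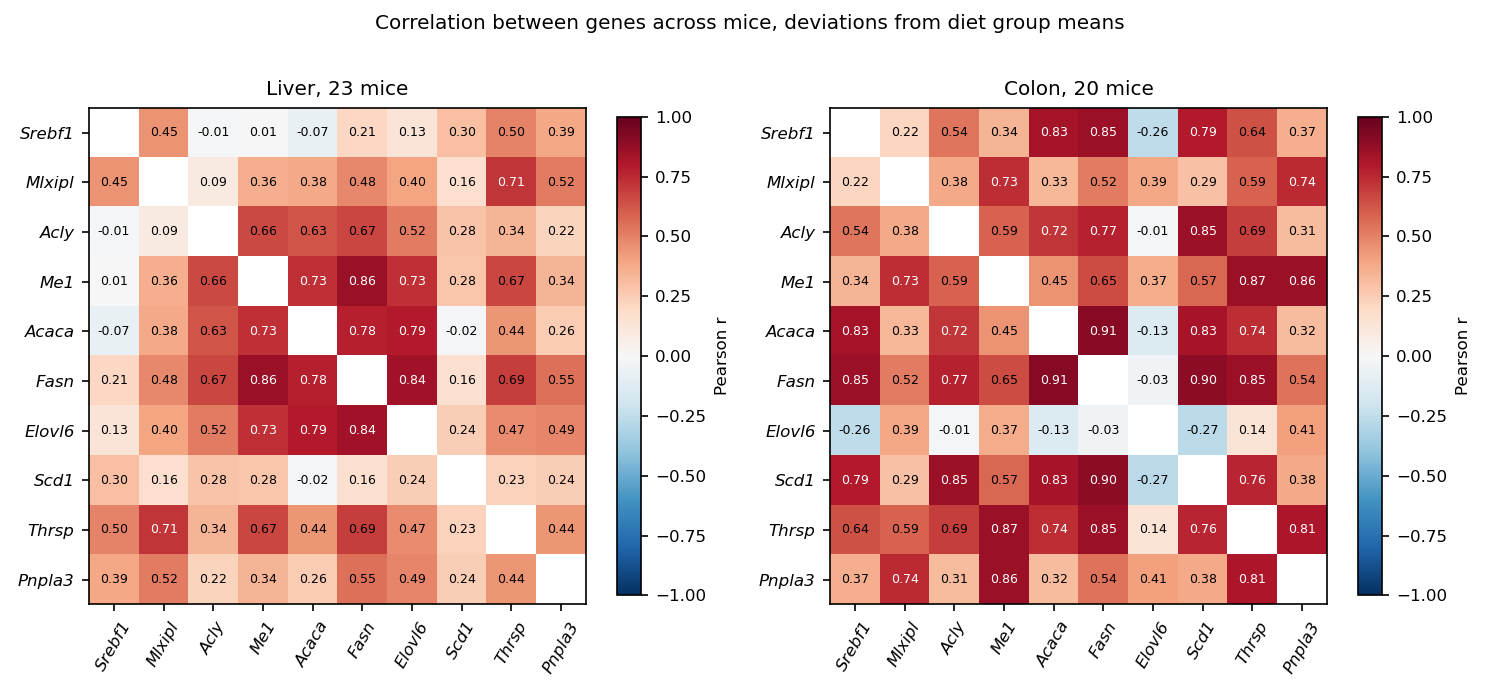
Pearson correlation of each pair of the 10 genes across mice, on deviations from the diet group mean (red above 0, blue below 0). Shown are 23 livers and the 20 colons with an adipocyte marker mean above 1. The square of *Srebf1* and *Fasn* is pale in liver (0.21) and dark red in colon (0.85), and that of *Elovl6* and *Fasn* is dark red in liver (0.84) and near white in colon (-0.03).

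By the same measure, the 5 genes outside the 10 most like *Fasn* in liver, of 18253 compared over 23 mice, were *Gpi1* (r = 0.89), *Tkfc* (0.87), *Frmd8* (0.86), *Olfr60* (0.83) and *Plcxd1* (0.83). *Gpi1* is a glycolytic isomerase and *Tkfc* a kinase of fructose metabolism. In colon, over 24 mice and 18218 genes, they were *Gstz1* (0.97), *Tmem120b* (0.95), *Ptger3* (0.93), *Pcx* (0.93), which makes oxaloacetate from pyruvate, and *Dgat2* (0.93), which makes triglyceride. Without the 4 colons, r was between 0.91 and 0.96 for these 5, and in liver without the HH mouse of low *Thrsp* it was between 0.76 and 0.87. These values describe likeness and carry no test.

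The wider pathway was followed through 4 lists of 43 genes: regulators, supply of substrate and NADPH, fatty acid modification, and triglyceride assembly and storage. None was called in any comparison of either tissue (limma). These lists were counted over all mice only, with the HH liver of low *Thrsp* among them. In liver, for LH *vs.* HH, 8 of the 43 were higher and 0 lower at an unadjusted p under 0.05, with a median difference of 0.07, where all named genes had a median of -0.02 with 1099 higher and 1452 lower of 18433. For LL *vs.* HH it was 0 and 0, and for LL *vs.* LH it was 0 higher and 3 lower, beside 6.38% of all probes in either direction.

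The 3 genes with the lowest p for LH *vs.* HH in liver were *Rxra*, the partner receptor of LXR, with 1.12 ± 0.40 (SD) in HH and 1.63 ± 0.23 in LH, *Idh1*, a source of cytosolic NADPH, with 0.01 ± 0.18 and 0.62 ± 0.41, and *Acss2*, which makes acetyl-CoA from acetate, with -0.42 ± 0.28 and -0.04 ± 0.28. Their differences were 0.51, 0.62 and 0.39, each with a limma adjusted p of 0.28 or above. For HL *vs.* HH they were *Cidec*, a lipid droplet protein (-1.26 ± 0.54 SE), *Lpin2*, a phosphatidate phosphatase (0.74 ± 0.32), and *Idh1* (0.51 ± 0.24), each with an adjusted p of 0.95.

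In colon, where 3.24% of all probes were below an unadjusted p of 0.05 for LH *vs.* HH, 0 of the 43 were higher and 1 was lower, *G6pdx*, the entry enzyme of the pentose phosphate pathway (-0.19 ± 0.07 SE). *Mlx*, the partner of ChREBP, differed by -0.19 and *Angptl8* by -0.46. For HL *vs.* HH, the lowest p values belonged to *Rxra* (0.11), *Slc25a1*, the citrate carrier (0.12), and *Pklr* (0.11), and none of the 43 was below 0.05. Every adjusted p of those named came to 1.00.

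A list of 19 genes of cholesterol synthesis, the targets of the sister factor SREBP2, served as a comparison. In liver, all 19 were higher in LH than in HH, with a median difference of 0.30 and 7 at an unadjusted p under 0.05, beside 12% of all probes in either direction and 1099 of 18433 named genes as higher. Among the 7 were *Fdft1* (0.61) and *Fdps* (0.75), and none of the 19 was called (limma, adjusted p = 0.28 for *Fdft1*). Over the same mice 3 of the 10 fatty acid synthesis genes were higher and 7 lower. In colon, for LL *vs.* HH, a different comparison from that given for liver, all 19 were lower in LL. The median was -0.14 and none was below 0.05, beside 1.72% of all probes. Both colon groups hold mice with *Xist*, and LL holds colons of few adipocyte transcripts. The count was not repeated without them. The colon count for LH *vs.* HH and the liver count for LL *vs.* HH are not given here. The values of this list therefore do not compare the tissues. Of 15 genes of fatty acid oxidation, 12 were higher in LH than in HH in liver, with a median of 0.25, and none was called. Neither list was counted again without the HH liver of low *Thrsp*, which moved several differences of the fatty acid synthesis genes against HH.

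Last, the diet differences of liver were set against those of colon in one fit of all 8 groups. The labels do not link a liver to a colon. A pairing, if both came from the same mouse, was not modelled here or in the fit over all diets. For the 10 genes and 6 contrasts, no difference between the tissues passed (limma, 0% of 41171 probes called), and the lowest adjusted p was 0.80. At an unadjusted p under 0.05, none of the 10 genes was counted in any of the 6, against 7.53% of all probes for LH *vs.* HH, 2.09% for HL *vs.* HH, 2.44% for LL *vs.* HH, 3.52% for dam diet, 1.67% for offspring diet and 4.33% for the interaction. This holds for the brightest probe of each gene. A dimmer *Acaca* probe gave -0.46 for HL *vs.* HH, -0.39 for LH *vs.* HH and 0.63 for the interaction (limma, unadjusted p = 0.015, 0.039 and 0.017). Another gave 0.24 for LL *vs.* HH (limma, unadjusted p = 0.049). The lowest adjusted p of these was 0.64. The intervals of the 10 genes were wide. For *Srebf1* under LH *vs.* HH, the difference between the tissues was 0.20, with a 95% interval from -0.31 to 0.71.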

How the data were processed

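The members and the gene lists were chosen with earlier results of these data known. Per the file headers, the deposited array files give the median intensity of spots and of the background around them, for Cy3 and Cy5, not normalized. A second deposit of the authors holds log2 ratios, which matched global loess without background correction in the direction of reference over mouse (Pearson correlation 0.9997 or above on every array, column medians -0.0077 to 0.0144). Per the methods, the authors used loess and limma. At the same thresholds the paper reports called probes in liver, most of them for HH *vs.* LH, where the main fit here called none. The cause of that difference was not tested.

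Here a local background brighter than its spot was first set to the median background of that array and channel. Background was then corrected with normexp (offset 50), ratios were normalized by global loess within arrays, control and outlier spots were left out, and spots of a probe were averaged (R 4.3.3, limma 3.58.1). Spots well above background in the mouse channel made up 55.1% to 66.0% of each liver array and 66.8% to 73.7% of each colon array, which with the number of mice limits the precision. Probes were named by accession through RefSeq genes, which matched 27050 of 41174. The scripts were tested on simulated data.

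The 2 HH liver arrays of one animal were averaged. The limma fit held the 4 diet groups of a tissue, with Benjamini-Hochberg adjustment over all probes, and calls needed a fold change over 1.5 and an FDR under 0.05. For liver against colon, the 8 groups were fitted together and slides were taken as a random block (correlation 0.21), since each slide held 1 tissue and 1 array of each diet. Nothing says that mice of a group came from separate litters, so p-values measure the spread between these mice.

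Named were all members, each by its brightest probe, the 3 pathway genes with the lowest p for LH *vs.* HH and for HL *vs.* HH in a tissue, the 5 genes most like *Fasn*, and cell type markers. Genes of the cholesterol list were named after their values were seen. No probe was found for the markers *Cps1*, *Serpina1a* and *Adrb3*. Other normalizations, background corrections, signals, filters, fits and thresholds were tried, and each mouse was left out in turn.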

Additional observations from a re-analysis of the deposited data

Results flagged for a closer look

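Each of the 10 genes was screened for a single mouse far from the rest of its group, in 8 groups of 5 or 6 mice. Of the 80 sets, 4 were marked, and chance marks about 1 in 20, which is 4. In liver, the HH mouse measured on 2 arrays was marked for *Fasn*, at 0.741 on the log2 ratio scale, and for *Thrsp*, at 0.69. In colon, an HL mouse was marked for *Elovl6*, at 0.376, where the other HL mice had 0.76 to 0.81. That mouse is also the HL colon with few adipocyte transcripts. An LL colon was marked for *Acly*, at 0.903, where the others reached at most 0.29, and it is one of the colons with *Xist*.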

How the results depend on the processing

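No alternative called any of the 10 genes in a diet comparison, apart from a plain unadjusted p under 0.05, which gave 2 for LL *vs.* LH and 1 for the interaction in liver. With each mouse left out in turn, the number of members called stayed at 0 to 0. Directions kept in 1941 of 2070 liver and 2039 of 2160 colon values when a mouse was left out, in 67 of 90 colon values without the mice with *Xist*, and in 73 of 90 without the 4 colons of few adipocyte transcripts. The lowest adjusted p of a member under any setting was 0.21 in liver and 0.41 in colon. Over all probes, LH *vs.* HH in liver went from 0 calls to 106 with all 8 groups in the fit, 18 with only the groups compared, 6 with the 2 HH arrays as 2 mice, 5 with slide as a block, 2 without HL replicate 4 and 1 without LL replicate 4. The liver interaction went from 0 to 52 with all 8 groups and 3 with slide as a block. The cause was not tested. Over all 24 colons, *Srebf1* correlated with 7 members by Pearson and 5 by Spearman, and with 1 and 0 without the mice with *Xist*. *Adipoq* correlated with 6 by Pearson and 8 by Spearman over all 24 and with 0 by either when the 4 colons and the mice with *Xist* were left out, a choice made after seeing the data. Each slide held 1 array of each diet, and with slide as a replicate block 0 members were called in every diet comparison, as without it.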
